A study of Mus musculus with 12 samples.

Results

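Distal convoluted tubules (DCT) of the mouse kidney, sorted for green fluorescence (EGFP+), were compared with the tubules of the same kidneys that carried no fluorescence (EGFP-). The comparison took the arrays by their labelled sample type, 4 EGFP+ and 4 EGFP- arrays from 4 mice, which is 8 of the 12 arrays of the series. The other 4 arrays held the total tubule suspension and entered only 1 alternative fit. Each array is 1 fraction of 1 mouse, mice 1 and 3 were female and mice 2 and 4 male, and fractions were paired by mouse. Both fractions passed through the same large-particle sorter (COPAS) as renal tubule suspensions. The strain, the age, the promoter that drove EGFP and the number of tubules per sample were not named in the labels. No treatment is named in the labels. EGFP- tubules are a mixture of all remaining segments with whatever else the suspension held, and a difference in a bulk fraction cannot tell fewer cells of a type from less RNA per cell.

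The DCT is the short nephron segment after the thick ascending limb. It takes up sodium chloride through an apical cotransporter that thiazide diuretics block, and it sets the final magnesium and, in its late part, calcium content of urine. Its cells are known for dense mitochondria and a basolateral membrane rich in sodium pumps. The proximal tubule, which makes up most of the tubular mass of the cortex, is known for the uptake of organic solutes and for drug, amino acid and fatty acid metabolism.

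The label was checked on the segment markers first. Slc12a3, the thiazide-sensitive cotransporter, stood at 7.29, 7.33, 7.73 and 7.62 in EGFP+ tubules of mice 1 to 4 and at -0.30, -1.85, -0.60 and -0.87 in EGFP- tubules. These values and all levels below are log2 signals relative to the array's own 75th percentile, which is 0. Trpm6, the apical magnesium channel, stood at 2.92, 2.81, 2.80 and 3.08 against -4.53, -4.73, -5.22 and -6.33, with 2 of 4 EGFP- arrays well above background by the scanner software's call. Pvalb, the calcium-binding protein parvalbumin, was well above background on no EGFP- array and was at least 797-fold higher in EGFP+ tubules. For each of these genes every EGFP+ array lay above every EGFP- array. Slc34a1, the sodium phosphate cotransporter of the proximal tubule, went the other way, at 1.66, 3.27, 1.80 and 2.81 in EGFP+ tubules against 6.81, 7.0 and 7.43 in EGFP- tubules of mice 1, 3 and 4. Its EGFP- spot of mouse 2 carried an outlier mark and was left out of the fit. The measurement behind the first pair rests on 60-base probes, shown because they are the sequences that report the sorted segment. Positions are in mm8, per the file headers, at chr8:97240865-97240924 and chr19:18944659-18944718, both on the plus strand, without an annotation of the build. The probes are printed in lower case, 5′ to 3′, as the scanner files give them.
Slc12a3: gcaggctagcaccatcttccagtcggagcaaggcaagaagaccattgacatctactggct
Trpm6: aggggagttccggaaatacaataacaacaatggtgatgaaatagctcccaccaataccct

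**Figure D1:**
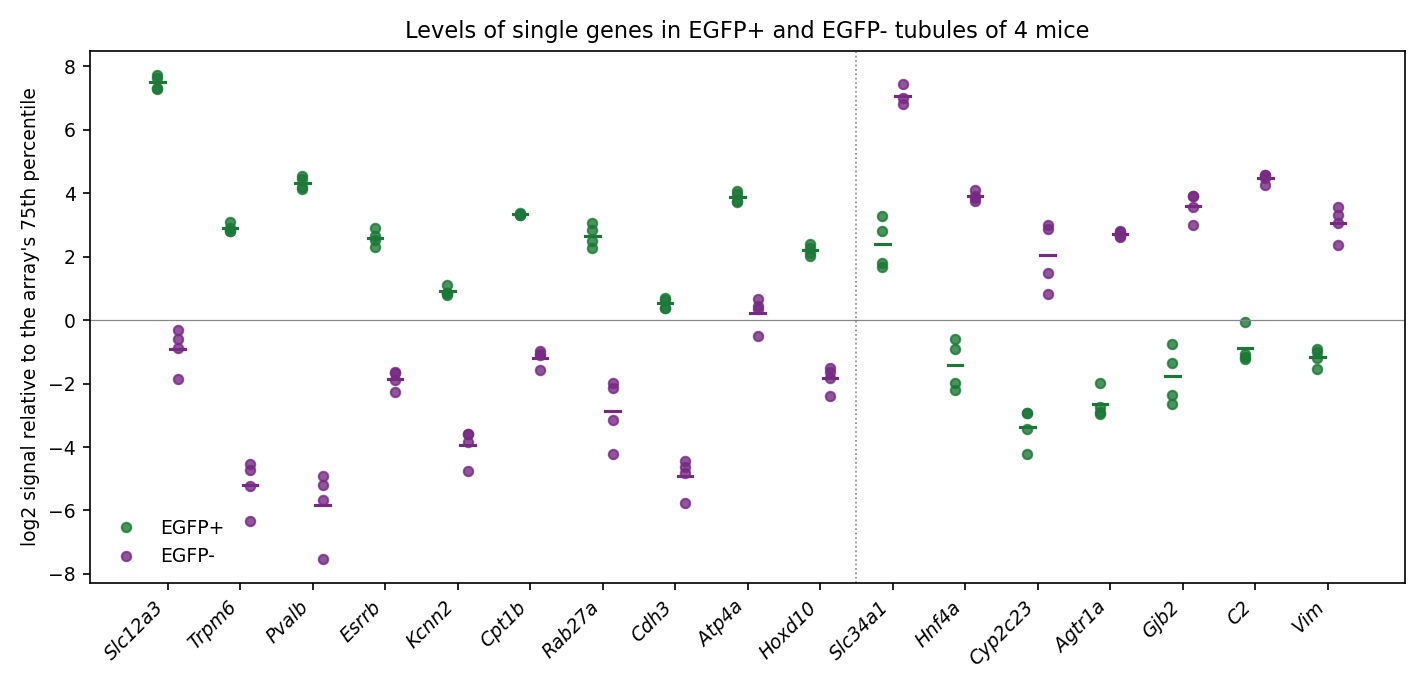
Log2 signal relative to the array's 75th percentile (vertical axis) for 17 genes in EGFP+ (green) and EGFP- (purple) tubules, with 1 point per mouse and a bar at the mean. Pvalb was well above background on no EGFP- array, so its purple points are not measured levels. The 10 genes left of the dotted line were higher and the 7 right of it lower in EGFP+ tubules, and for none of the 17 did the fractions overlap. Of all genes tested, 57.0% had no overlap, counted in either direction.

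The 8 arrays had 75th percentiles of signal between 1039 and 2257 intensity units, and the share of probes well above background from 54.5% to 61.6%. The number of arrays limits the precision, and the EGFP- array of mouse 4 was the dimmest. The arrays sat on 3 slides, and the slide of an array is also its scan. The EGFP+ arrays lay on slides 1, 1, 2 and 3 and the EGFP- arrays on slides 1, 2, 3 and 3, for mice 1 to 4. Markers of other cells moved with the fraction. All 21 proximal tubule markers tested were lower in EGFP+ tubules (median -4.99), as were 13 of 14 podocyte markers, 14 of 15 endothelial markers, 10 of 14 markers of mesangium, smooth muscle and stroma, 5 of 10 leukocyte markers and 3 of 4 erythroid markers. All 15 DCT markers were higher (median 4.03), and 9 of 10 thick ascending limb markers were higher as well (median 1.92). The summed linear signal of the thick ascending limb markers in EGFP+ tubules was 337% to 526% of that in EGFP- tubules of the same mouse. For the DCT markers it was 798% to 1040%. Collecting duct markers divided, with 3 of 10 principal cell markers higher and 7 lower, and 2 of 11 intercalated cell markers higher and 5 lower. Remaining signal of the proximal markers in EGFP+ tubules differed between mice, with a median difference of -5.38, -4.14, -5.44 and -4.71 in mice 1 to 4.

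Of 16091 genes tested, 9678 (60.1%) differed between the fractions in limma's moderated test with Benjamini-Hochberg adjustment. In EGFP+ tubules 5655 genes (35.1%) were higher and 4023 (25%) lower. A fold change of 4 or more was reached by 2002 of the lower genes (12.4% of those tested) and by 902 of the higher ones (5.61%). These percentages are the background against which each class of genes is read. A lack of overlap between the fractions was common too, at 57.0% of the genes tested, counted in either direction. Over all genes tested the differences had a median of 0.16. With each array centred on its median this became 0.34, and 66.8% in place of 58.4% of calls lay on the higher side. Normexp background correction gave 67.6% on the higher side. Differences are EGFP+ minus EGFP- on the log2 scale. Their standard errors (SE), over the 224 genes named here, ran from 0.11 to 1.13 with a median of 0.18. Differences within the 4 mice correlated with each other across genes at 0.92 to 0.95, where genes are not independent replicates.

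The differences on the lower side did not thin out evenly with size. Among the 1027 genes at least 4-fold lower and well above background on all 8 arrays, the number per step of 0.5 log2 units fell from 216 genes between -2.0 and -2.5 to 71 between -4.0 and -4.5. It then climbed to 172 between -5.0 and -5.5 and dropped to 23 between -5.5 and -6.0. Of the proximal tubule markers, 7 lay in that peak and 6 in the step beside it, between -4.5 and -5.0. The 533 genes on the higher side showed a single decline, from 170 between 2.0 and 2.5 to 12 between 5.0 and 5.5. The differences varied with the mouse, inside the peak and outside it. The 172 genes of the peak had a median difference of -5.69 in mouse 1, -4.49 in mouse 2, -5.74 in mouse 3 and -5.26 in mouse 4. This is the order of the proximal markers, of which 7 are among these genes. Mouse 2 had the smallest median in each lower-side step from -2.0 to -6.0. Between -3.5 and -4.0 the medians were -3.82, -3.44, -3.90 and -3.76 in mice 1 to 4. In the steps past -6.0, with 4 and 2 genes, mouse 1 had the smallest. What part remaining proximal tissue in the EGFP+ fraction had in the size of the differences was not tested.

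**Figure D2:**
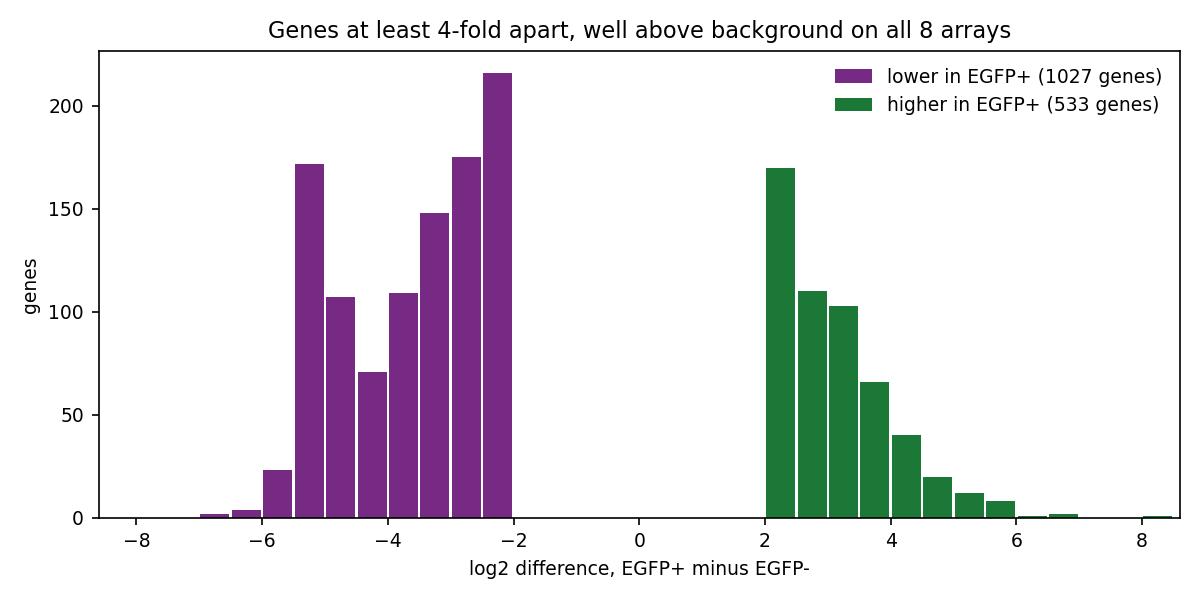
Number of genes (vertical axis) by log2 difference between EGFP+ and EGFP- tubules (horizontal axis, steps of 0.5) for genes at least 4-fold apart and well above background on all 8 arrays. The lower side has a peak of 172 genes between -5.0 and -5.5, and the higher side has none.

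Genes were then grouped into 92 classes by the form of their symbol. Their medians ran from -4.63 for organic ion carriers to 0.67 for ATP synthase subunits. The plot of class medians sets 35 of them beside the value of all genes, with the spread over the mice.

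**Figure D3:**
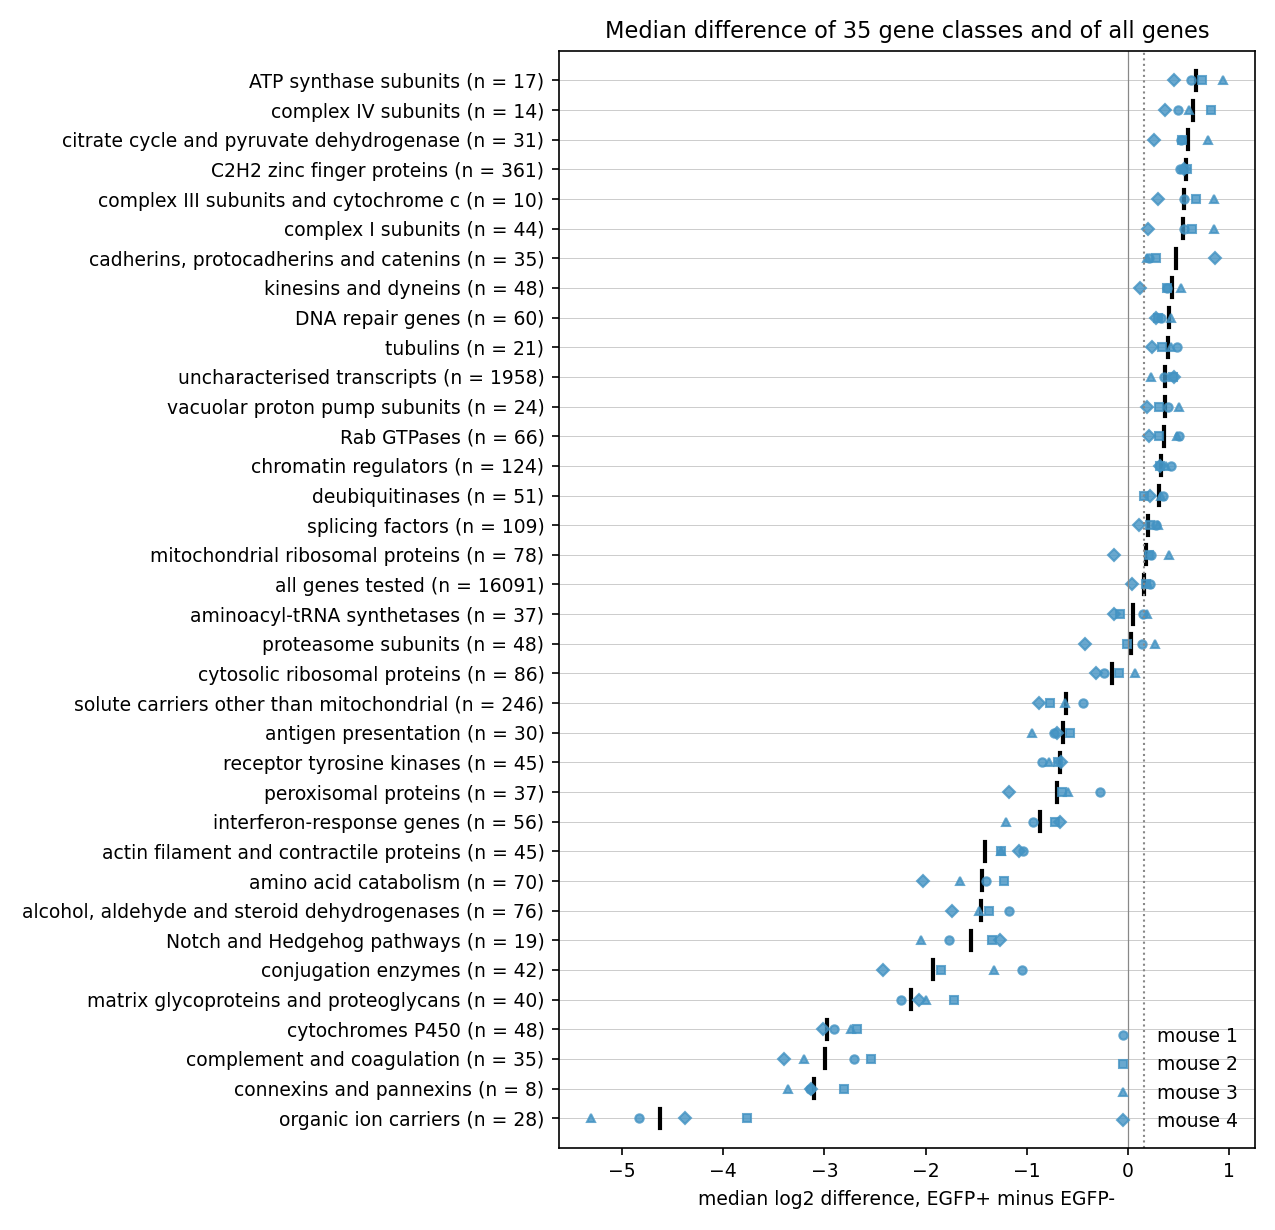
Median log2 difference, EGFP+ minus EGFP-, of 35 classes and of all genes tested (dotted line, 0.16). Black bars are medians of the fitted differences and symbols the medians within mice 1 to 4, and n is the number of genes tested. C2H2 zinc finger proteins lay between 0.51 and 0.58 in the 4 mice.

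Zinc finger genes were higher more often than the background. C2H2 zinc finger proteins are a family of DNA-binding proteins that includes many repressors of mobile elements. The class was taken by symbol, without a check of the finger type, and can hold other zinc finger genes. Of 361 tested, 223 (61.8%) were higher in EGFP+ tubules and 22 (6.09%) lower, against 35.1% and 25% of all genes. The differences were small and even. The class had a median of 0.57 with quartiles of 0.17 and 0.88, and within mice 1 to 4 the median was 0.51, 0.58, 0.54 and 0.55. A fold change of 4 was passed by only 7 higher and 10 lower members. Zfp7 stood at 3.04, 2.79, 2.78 and 2.58 in EGFP+ and at 0.55, 0.32, 0.35 and -0.09 in EGFP- tubules, which is 5.71-fold higher (adjusted p = 9.3e-06). Zfp629 (2.46), Zfp599 (2.30) and Zfp651 (1.99) were other higher members. The exceptions included Zfp462, a chromatin-associated zinc finger protein that was 26.4-fold lower, Zbtb8a (-3.09), and Zfp275, at least 9.98-fold lower. Every array of the EGFP+ fraction lay above every EGFP- array for Zfp7, and the reverse held for Zfp462.

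The share of zinc finger genes that were higher lay above that of all genes at every level of signal. When all tested genes were divided into 5 equal bins by their mean level over the 8 arrays, 30 of 44 zinc finger genes in the lowest bin were higher (68.2%, against 31.6% of all genes in it), 68 of 108 in the third (63.0% against 39.7%) and 10 of 23 in the highest (43.5% against 30.6%). The class median was positive in every bin, from 0.76 in the lowest to 0.29 in the highest. It was 0.76 with median centring, 0.59 with quantile normalization and 0.60 with normexp correction.

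**Figure D4:**
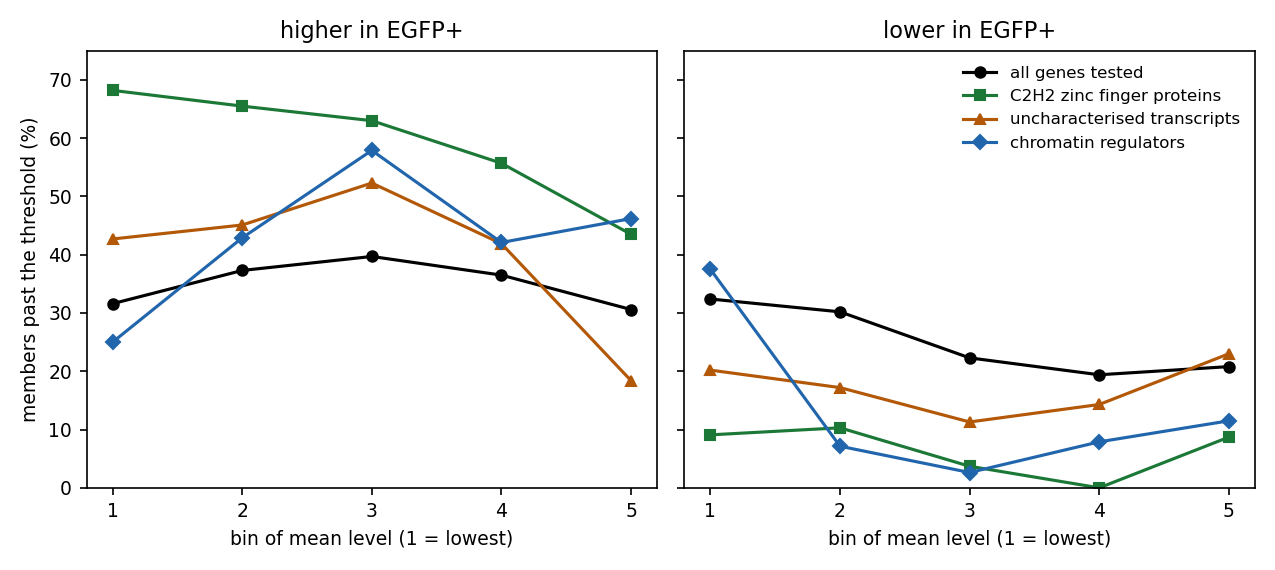
Percentage of members higher (left) and lower (right) in EGFP+ tubules in each of 5 bins of mean level, from 1 (lowest) to 5 (highest), for all genes and 3 classes. C2H2 zinc finger genes lay above all genes on the left and below them on the right in every bin. Chromatin regulators had only 8 members in the lowest bin.

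Of 124 chromatin regulators, 58 were higher and 11 lower (46.8% and 8.87%), with a median of 0.33. Hdac11, a histone deacetylase, was 5.35-fold higher, Smarcd3, a subunit of SWI/SNF remodelling complexes, differed by 1.67, Arid3a by 1.59 and Dnmt3b, a de novo DNA methyltransferase, by 1.47. Tet1, a methylcytosine dioxygenase, was lower (-3.47). DNA repair genes had 28 of 60 higher and 12 lower, with Rad54b (1.52), which acts in homologous recombination, among the former. Cell cycle genes had 46 of 113 higher and 18 lower (40.7% and 15.9%). Cdk14 (3.37) and Cdc25b (2.27), a phosphatase that activates mitotic kinases, were the higher ones by size, while Cdkn1c, a cyclin-dependent kinase inhibitor that podocytes express strongly, was lower (-6.0). Histone genes had 3 of 34 higher and 13 lower (8.82% and 38.2%), with a median of -0.20. Within mice 1 to 4 their median was -0.10, -0.34, 0.0 and -0.88, and with median centring it was -0.02.

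Homeobox and related patterning genes divided by cluster. Of 78 tested, 31 were higher and 21 lower (39.7% and 26.9%), near the 35.1% and 25% of all genes. A fold change of 4 was passed by 14 and 13. Hox genes, which give cells their position along the body axis and stay expressed in adult kidney, were then set out by their 4 genomic clusters, a division made after the values were seen. All 8 Hoxb genes tested, on chromosome 11, were higher (median 2.14, from 0.65 for Hoxb5 to 3.29 for Hoxb8). All 5 Hoxd genes tested, on chromosome 2, were higher as well (median 3.75, from 1.68 for Hoxd4 to 4.05 for Hoxd10). The 10 Hoxa genes divided into 4 higher, 2 lower and 4 without a call, and of 5 Hoxc genes only Hoxc9 (0.53) passed, which it did not without mouse 2 (0.55) or mouse 3 (0.41) or with the normexp correction (0.40). Hoxb5 did not pass without mouse 2 (0.50). The medians of the Hoxd genes were 3.73, 3.65, 3.42 and 4.17 in mice 1 to 4. Hoxd10 stood at 2.28, 2.03, 2.40 and 2.12 in EGFP+ and at -1.51, -1.62, -1.83 and -2.39 in EGFP- tubules, with no overlap. Hoxa11 was well above background on no EGFP+ array and at least 14.9-fold lower. Outside the clusters, Prox1, a homeobox factor of lymphatic and distal nephron development, and Emx1 were higher (6.73 and 3.99), and Tbx3, a T-box repressor, was 37.3-fold lower.

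Other transcription factor families had no common direction, and single members stood out. Nuclear receptors had 10 of 36 higher and 14 lower. Esrrb, an orphan receptor related to the oestrogen receptors, stood at 2.54, 2.32, 2.91 and 2.65 in EGFP+ against -1.68, -1.90, -1.62 and -2.25 in EGFP- tubules, 22.1-fold higher, and its relative Esrrg, a regulator of mitochondrial genes, was 2.79-fold higher. Hnf4a, a master regulator of proximal tubule and liver genes, stood at -1.98, -0.61, -2.19 and -0.91 against 3.76, 3.91, 3.86 and 4.09, 40.1-fold lower. Its EGFP+ level was higher in mice 2 and 4 than in mice 1 and 3. The bile acid receptor Nr1h4 (-3.86) and Ppara (-2.27), which drives fatty acid oxidation genes, were lower, and Nr1i2, the xenobiotic sensor also called PXR, was at least 22.0-fold lower. Among the SOX, FOX, KLF, ETS and related families 34 of 108 were higher and 40 lower. Tfap2b, a factor of distal nephron differentiation, was 24.2-fold higher, Grhl2, an epithelial factor, differed by 3.25, and Etv4, an ETS factor, was at least 19-fold higher. Foxd1, a factor of the renal stroma, was lower (-5.05), as were Nfia (-4.88) and Foxc1 (-3.72). Of 84 bHLH and bZIP factors 25 were higher and 25 lower, with Arnt2 (2.94) and Mitf (2.41) against Tfec (-5.33) and Maf (-4.96).

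Genes of the basic machinery of RNA and protein synthesis mostly did not pass the threshold. Of 86 cytosolic ribosomal protein genes, 1 was higher and 8 were lower, which left 77 that missed the threshold, and the median of -0.16 became 0.03 with median centring. Rpl21 (0.48) was the higher gene, a call lost without mouse 2 (0.47), with slide as the block (0.45) and with the mean of its probes (0.14), and Rpl28 (-0.86) and Rpl10 (-0.75) were the lower ones by size. Aminoacyl-tRNA synthetases had 5 of 37 higher and 4 lower, proteasome subunits 5 of 48 and 7, and ribosome biogenesis factors 6 of 59 and 9. Splicing factors had 35 of 109 higher and 1 lower (32.1% and 0.917%), with Prpf40b (1.79), Lsm6 (1.77) and Hnrnpa0 (1.53) leading and Rbm34 (-0.52) the lower gene, a call lost without mouse 2 (-0.52), 3 (-0.57) or 4 (-0.38), with median centring (-0.34) and with no filter on dim probes (-0.52). A threshold missed does not show that a gene was the same in both fractions. The share of calls in these classes lay well under the 60.1% of all genes.

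**Figure D5:**
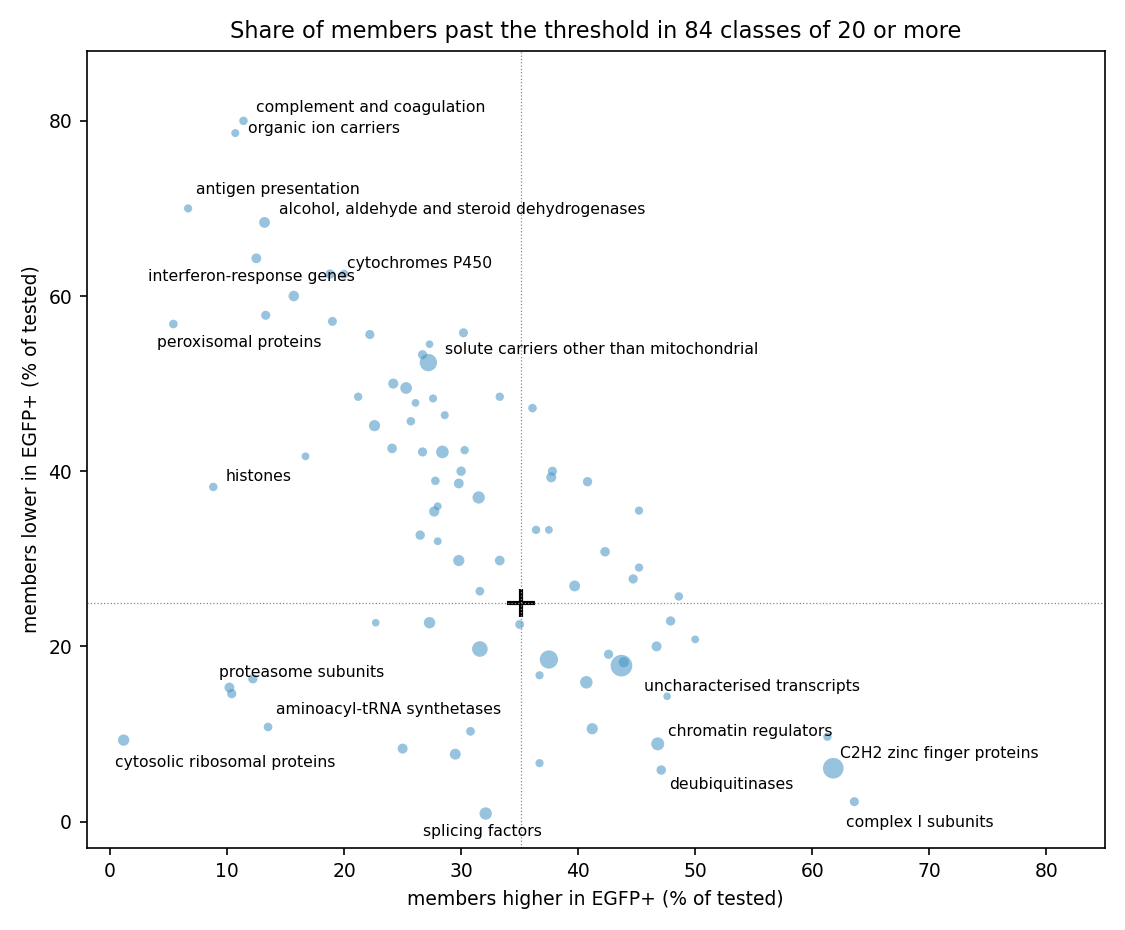
Percentage of members higher (horizontal axis) and lower (vertical axis) in EGFP+ tubules for the 84 classes with at least 20 genes tested, with point area growing with the number tested. The cross and dotted lines mark all genes (35.1% and 25%). C2H2 zinc finger proteins and complex I subunits lie at the lower right, ribosomal proteins at the lower left and organic ion carriers at the upper left.

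Among genes of protein turnover, deubiquitinases had 24 of 51 higher and 3 lower (47.1% and 5.88%), with Usp53 (1.84) leading. Of 275 ubiquitin-conjugating enzymes and ligases 103 were higher and 51 lower (37.5% and 18.5%, against 35.1% and 25% of all genes). Klhl3, an adaptor that targets WNK kinases for degradation and is mutated in familial hyperkalaemic hypertension, differed by 5.25. Fbxo32 (2.71) and Trim63 (-5.51), ligases best known together from wasting muscle, went opposite ways. Trim63 was 45.7-fold lower and varied between mice, at -4.22, -1.51, -3.63 and -1.61 in EGFP+ tubules. Autophagy genes had 11 of 30 higher and 2 lower (36.7% and 6.67%), with Becn1 (1.68) higher and Sqstm1 (-1.10), the autophagy receptor p62, lower. Lysosomal genes had 13 of 54 higher and 23 lower, with the proteases Ctsc (3.77) and Ctsk (2.44) higher and Lipa (-3.55), the acid lipase, and Ctss (-3.01) lower.

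Genes of oxidative phosphorylation were higher by small amounts across every complex examined. ATP synthase subunits had 14 of 17 higher and 0 lower (median 0.67), complex I 28 of 44 and 1 (median 0.54), complex III and cytochrome c 6 of 10 and 0 (median 0.55), and complex IV 9 of 14 and 1 (median 0.64). The lowest mouse was mouse 4 in each, with medians of 0.45, 0.20, 0.30 and 0.37. Atp5k stood at 4.26, 4.37, 4.62 and 4.23 in EGFP+ and at 2.86, 2.97, 3.14 and 3.50 in EGFP- tubules, 2.38-fold higher (adjusted p = 0.00092). Ndufa11 (1.19), Cox7b (1.14) and Cox6b1 (1.13) showed the size of the leading members elsewhere. None of these genes was at least 4-fold higher. Mitochondrial ribosomal proteins had 23 of 78 higher and 6 lower, near or under the background, and mitochondrial import genes 12 of 39 and 4.

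The citrate cycle class had 19 of 31 higher and 3 lower (median 0.59). Pdk1 and Pdk4, kinases that switch off pyruvate dehydrogenase, differed by 3.50 and 3.01, with Pdk1 at 3.63, 3.85, 3.86 and 3.89 in EGFP+ against 0.53, 0.29, 0.41 and 0.01 in EGFP- tubules. The mitochondrial isocitrate dehydrogenase Idh2 was 3.22-fold higher and the cytosolic Idh1 10.8-fold lower, and Pcx, pyruvate carboxylase of gluconeogenesis, was lower (-3.62). Fatty acid genes had 15 of 62 higher and 31 lower. Cpt1b, the muscle form of the enzyme that admits fatty acids to mitochondria, stood at 3.37, 3.31, 3.34 and 3.32 in EGFP+ against -1.09, -0.98, -1.07 and -1.58 in EGFP- tubules, 22.9-fold higher. Fabp3, the heart-type fatty acid binding protein, was 6.13-fold higher and Acacb, the acetyl-CoA carboxylase that controls mitochondrial fatty acid entry, 12.7-fold higher. Acot4 (-5.38), Acsm5 (-5.37) and Acot12 (-5.34), thioesterases and a medium-chain acyl-CoA synthetase, were lower. For Cpt1b, Fabp3 and Acacb all 4 EGFP+ arrays lay above all 4 EGFP- arrays.

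Several metabolic classes for which the proximal tubule is known were lower. Cytochromes P450, which oxidise drugs, steroids and fatty acids, had 30 of 48 lower and 9 higher (median -2.97). Cyp2c23, an arachidonic acid epoxygenase, stood at -2.92, -3.44, -2.94 and -4.22 in EGFP+ and at 3.01, 0.82, 2.86 and 1.48 in EGFP- tubules, 42.8-fold lower, with the female mice above the males in EGFP-. Cyp2j6 (3.06) and Cyp2u1 (2.60) were higher. Conjugation enzymes had 24 of 42 lower and 8 higher, with Ugt2b37 (-5.29, not called with slide as the block, at -4.94) and Gsta2 (-5.10) at the low end and Sult1a1 (3.57), a phenol sulfotransferase, higher. Alcohol, aldehyde and steroid dehydrogenases had 52 of 76 lower and 10 higher, with Hsd3b2 (-5.50) and Rdh16 (-5.43) lowest. Amino acid catabolism had 42 of 70 lower and 11 higher, with Bhmt2 (-5.56), Hgd (-5.47), which degrades homogentisate, and Gldc (-5.41) of the glycine cleavage system, while Bcat2 (2.79), a branched-chain transaminase, was higher. Peroxisomal genes had 21 of 37 lower and 2 higher, with the D-amino acid oxidase Dao (-5.30) and Acox2 (-5.19) lowest. The medians of these classes stayed negative with each scaling and background method tried, and the normexp correction brought that of the cytochromes to -1.28.

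Cholesterol and lipid synthesis showed no common direction. Of 25 cholesterol genes 7 were higher and 8 lower, with Fdps (1.38), which makes farnesyl pyrophosphate, higher and Mvd (-2.79), a decarboxylase earlier in the same pathway, lower. Of 57 lipid synthesis genes 17 were higher and 22 lower, with Sgms2 (3.60), a sphingomyelin synthase, against the desaturases Fads3 (-5.27) and Fads2 (-4.89). Of 50 nucleotide genes 15 were higher and 20 lower. Adssl1, the muscle-type adenylosuccinate synthase, differed by 4.39, and Cda, cytidine deaminase, by -5.48. Among 65 antioxidant genes 18 were higher and 23 lower, and the glutathione peroxidases went opposite ways, with Gpx6 at 4.86 and the secreted Gpx3, which proximal tubules release into plasma, at -4.62.

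Solute carriers were lower more often than the background. Of 246 solute carriers other than those of mitochondria, 129 were lower and 67 higher (52.4% and 27.2%), with 90 and 24 past 4-fold. Organic ion carriers, which excrete drugs, had 22 of 28 lower and 3 higher (median -4.63). Slc22a22 (-5.51) and Slc22a30 (-5.23), members of the organic ion carrier family, were among the lower ones. Slco4a1, a carrier of thyroid hormone and other organic anions, was the main exception, 16.8-fold higher. Amino acid carriers had 24 of 43 lower and 13 higher. Slc6a18 (-5.40), Slc6a13 (-5.41) and Slc6a20b (-5.40) were lower, whereas Slc1a3, a glutamate carrier of glia, was 13.8-fold higher and Slc38a1 differed by 3.40. Slc16a7, a monocarboxylate carrier, differed by 5.14. Vacuolar proton pump subunits had 12 of 24 higher and 5 lower (median 0.37), with Atp6v1b1 (2.04), the form of acid-secreting cells, higher and Atp6v0e2 (-4.55) lower. Of 30 P-type ATPases 11 were higher and 5 lower (36.7% and 16.7%, against 35.1% and 25% of all genes). Atp4a, the catalytic subunit of the gastric proton potassium pump, was 12.5-fold higher, at 4.07, 3.76, 3.99 and 3.71 against 0.67, 0.35, 0.43 and -0.50, and its colonic counterpart Atp12a was 3.28-fold higher.

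Ion channel classes held large single differences. Potassium, chloride and ligand-gated channel genes were lower more often than the background (47.2%, 46.4% and 47.8%). Voltage-gated calcium and sodium channel genes went the other way, with 6 of 12 higher and 3 lower. Of 36 potassium channel genes 13 were higher and 17 lower, and their median of -0.34 turned to 0.64 with the normexp correction. Kcnn2, a small-conductance calcium-activated channel, stood at 0.86, 0.87, 1.11 and 0.78 in EGFP+ against -3.60, -3.59, -3.83 and -4.75 in EGFP- tubules, 28.8-fold higher. Kcnj10, the basolateral channel of the DCT that is lost in EAST syndrome, differed by 4.18, and Kcnj15 (-5.46) and Kcnk5 (-4.27), known from proximal tubules, were lower. The calcium channel subunits Cacnb4 (5.27) and Cacnb3 (3.39) were higher. Of 28 chloride channel genes 8 were higher and 13 lower, with Ano9 (3.40) against Clic6 (-5.69) and Clic5 (-4.80). Among TRP channels 7 of 19 were higher and 7 lower, with Trpv6 (4.10) and Trpm7 (2.45), the relative of Trpm6, higher and Trpc1 (-2.86) lower. Grin3a, an NMDA receptor subunit, was well above background on no EGFP- array and at least 43.9-fold higher, and Gria3, an AMPA receptor subunit, was at least 19.5-fold lower. Connexins and pannexins had 7 of 8 lower and 0 higher (median -3.10). Gjb2, connexin 26, stood at -2.37, -0.74, -2.63 and -1.34 against 3.57, 3.92, 3.0 and 3.90, 41.5-fold lower.

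Receptors were lower more often than the background. Of 95 G protein-coupled receptors 47 were lower and 24 higher (49.5% and 25.3%). Their median of -0.39 became -0.24 with probes well above background on all 8 arrays and 0.08 with the normexp correction. Agtr1a, the angiotensin II receptor, stood at -2.89, -1.97, -2.97 and -2.73 in EGFP+ against 2.77, 2.81, 2.62 and 2.66 in EGFP- tubules, 40.9-fold lower. Sucnr1 (-5.39), the succinate receptor, and Cckar (-5.41), a cholecystokinin receptor, were lower, and Adrb1, the beta-1 adrenergic receptor, was 34-fold higher, at 2.02, 1.73, 1.95 and 1.85 against -2.65, -3.24, -3.10 and -3.82. Receptor tyrosine kinases had 25 of 45 lower and 10 higher, with Pdgfrb (-5.0), Fgfr4 (-4.15) and Kdr (-3.88) lower and Ephb3 (3.64) and Fgfr2 (1.78) higher. Their median of -0.67 became -0.31 with probes well above background on all 8 arrays.

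Developmental ligands and their receptors differed by pathway. Notch and Hedgehog genes had 11 of 19 lower and 2 higher (median -1.55), with the Notch target Hey1 (-4.58) and the ligand Dll1 (-3.57) lower and Jag1 (0.77) and Notch1 (0.40) higher. The class median was -0.47 with probes well above background on all 8 arrays and -0.48 with the normexp correction. The Notch1 call was lost without the mouse block (0.40), with slide as the block (0.31), with no filter on dim probes (0.40) and without mouse 2 (0.33), 3 (0.39) or 4 (0.38). Guidance genes had 24 of 45 lower and 12 higher, with Sema3g (-4.92) and Efnb2 (-3.74) against Efna5 (4.25) and Slit2 (3.27). Their median of -0.73 became -0.22 with probes well above background on all 8 arrays. Among Wnt genes 12 of 38 were higher and 10 lower (31.6% and 26.3%), near the 35.1% and 25% of all genes. The secreted antagonists went opposite ways, with Sfrp1 at 6.33, Sfrp2 at -6.58, Dkk2 at -5.55 and Wif1 at least 19.4-fold lower. Vegfd (4.25) and Fgf9 (3.19) were higher among growth factors, and Angpt2 (-4.67) and Vegfc (-3.90) lower. In the TGF-beta and BMP class 12 of 45 were higher and 19 lower, and its median of -0.18 became 0.01 with median centring and 0.12 with the normexp correction.

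Signalling inside the cell was divided. MAP kinase genes had 20 of 47 higher and 9 lower (42.6% and 19.1%, against 35.1% and 25% of all genes). Mapk10, the neuronal Jun kinase, was at least 61.5-fold higher. Protein kinases of the PKC, CaMK and STK families had 21 of 47 higher and 13 lower (44.7% and 27.7%). Stk39, which encodes SPAK, the kinase that phosphorylates the thiazide-sensitive cotransporter, stood at 3.52, 3.41, 3.57 and 3.23 in EGFP+ against 0.02, -0.26, -0.31 and -0.86 in EGFP- tubules, 13.8-fold higher. Prkd1 (4.86) and Dapk1 (2.27) were higher, and Prkch (-3.05) lower. Of 49 genes of cyclic nucleotide signalling 20 were higher and 19 lower, with Pde1b (4.02) and Pde3b (2.87), which break down cyclic nucleotides, against Akap12 (-3.46) and Adcy4 (-3.24). Rgs6 (4.6) and its partner Gnb5 (2.57), which together form a brake on G protein signals, were both higher, and Gna14 (-5.41) was lower.

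Rab GTPases, tubulins, and kinesins and dyneins were higher somewhat more often than the 35.1% of all genes, and the wider membrane trafficking class was not. The lower share of kinesins and dyneins was near the 25% of all genes. Rab GTPases had 29 of 66 higher and 12 lower (43.9% and 18.2%). Rab27a, which docks secretory vesicles, stood at 3.07, 2.28, 2.84 and 2.48 in EGFP+ against -1.99, -3.15, -2.13 and -4.23 in EGFP- tubules, 46.6-fold higher. Its paralog Rab27b differed by 4.25, Rab25, of apical recycling, by 3.85, and the Rab27 effectors Sytl2 and Sytl1 by 4.58 and 3.56. Ap1m2, the epithelial subunit of the AP-1 sorting adaptor, differed by 3.62. Over the 193 membrane trafficking genes the shares, 31.6% higher and 19.7% lower, were both under the background. Kinesins and dyneins had 23 of 48 higher and 11 lower (47.9% and 22.9%), with Klc3 (3.58) and Kif5c (3.30) leading, and tubulins 10 of 21 and 3 (47.6% and 14.3%). Genes of cilium and centrosome had 35 of 85 higher and 9 lower (41.2% and 10.6%). The higher share of this class was nearer the 35.1% of all genes, its lower share was under their 25%, and its median was 0.21 against 0.16. Pkhd1, the gene of recessive polycystic kidney disease, differed by 1.19.

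Junction genes moved in both directions. Of 35 cadherins, protocadherins and catenins 17 were higher and 9 lower. Cdh3, P-cadherin, was 43.2-fold higher, at 0.64, 0.38, 0.69 and 0.39 against -4.43, -4.62, -4.81 and -5.77, with 3 of 4 EGFP- arrays well above background, and Cdh1, E-cadherin, differed by 2.62, while the endothelial Pcdh12 (-4.14) and Pcdh17 (-4.66) were lower. Tight junction genes had 14 of 31 higher and 11 lower. Cldn8, a claudin of the distal nephron, was 10.6-fold higher and Cldn7 differed by 3.29, and Cldn2 (-5.26), the leaky claudin of the proximal tubule, and the endothelial Cldn5 (-5.75) were lower.

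Classes of contractile, matrix and immune genes were lower in EGFP+ tubules. Actin filament and contractile genes had 26 of 45 lower and 6 higher, with Mylk (-5.0) and Synpo (-6.20), a podocyte actin protein, lower and Pdlim1 (3.41) higher. Vim, the intermediate filament vimentin, stood at -0.90, -1.0, -1.18 and -1.54 against 3.56, 3.05, 3.33 and 2.37, 18.8-fold lower. Matrix glycoproteins had 25 of 40 lower and 8 higher (median -2.14, and -1.64 with genes not above background at their bound), with Sparc 17.0-fold lower and Thbs3 (2.68) and Thbs1 (1.84) higher. Their median was -0.88 with probes well above background on all 8 arrays and -0.14 with the normexp correction. Collagens had 14 of 29 lower and 8 higher. Their median of -1.0 became 0.13 with the normexp correction and -0.22 with probes well above background on all 8 arrays. Col1a2 (-4.87) and Col8a1 (-5.37) were lower and Col5a2, a fibrillar chain, was higher (4.94). Integrins had 12 of 22 lower and 6 higher, with Itga8 (-6.36) and Itga9 (-4.22) lowest.

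Complement and coagulation genes had 28 of 35 lower and 4 higher (median -2.99). C2, of the classical complement pathway, stood at -1.22, -0.07, -1.15 and -1.08 in EGFP+ against 4.49, 4.57, 4.57 and 4.25 in EGFP- tubules, 40.8-fold lower, with mouse 2 apart from the others in EGFP+. Plat (-6.0) and Proc (-4.80) were lower, and the complement inhibitors Cd59a (1.59) and Cd59b (1.20) higher. Antigen presentation genes had 21 of 30 lower and 2 higher (70.0% and 6.67%), with the class II gene H2-Ab1 8.5-fold lower, at -1.88, -2.32, -2.15 and -2.47 against 1.27, 0.22, 1.61 and 0.44, and Tap2 (0.83) and Tapbp (0.50) higher. Tapbp was not called without mouse 1 (0.46) or mouse 2 (0.45). Interferon-response genes had 36 of 56 lower and 7 higher (median -0.87), with Irf8 (-4.53) and Ifi203 (-3.16) lower. Cytokine genes had 38 of 84 lower and 19 higher (45.2% and 22.6%), with Cxcl12 (-4.45) and Csf1 (-4.09) lower. Of the 84, 12 were well above background on no EGFP+ array, and passed the filter through EGFP- tubules alone. The class median of -0.38 became -0.06 with probes well above background on all 8 arrays and 0.05 with the normexp correction.

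Markers of cells outside the tubule moved with these classes. The summed linear signal of the 10 leukocyte markers in EGFP+ tubules was 11% to 19.9% of that in EGFP- tubules of the same mouse, with Tyrobp well above background on no EGFP+ array. Of that list Fcer1g was higher (0.90) and Csf1r, Cd68, C1qb and Cd3e were not past the threshold. The 15 endothelial markers stood at 28.7% to 55.7%, and Ramp2 among them was higher (0.84), a call lost with the mean of its probes (0.07). The 14 markers of mesangium, smooth muscle and stroma stood at 40.8% to 56.2%, with Pdgfra and Des well above background on no EGFP+ array. The podocyte markers stood at 10.9% to 18.4%, and Dach1, which distal tubules also express, was the higher member (1.44). A summed signal rests most on the brightest genes of a list and is not a share of cells. The median difference was -1.21 for the leukocyte and -2.94 for the endothelial markers. It was -3.07 for those of mesangium, smooth muscle and stroma and -6.02 for the podocyte markers. The part of these cells in the contractile, matrix and immune results was not tested.

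Transcripts without an assigned function were higher more often than the background. Of 1958 such transcripts tested, out of 6497 on the array, 855 were higher and 349 lower (43.7% and 17.8%), with a median of 0.37. In the lowest bin of level 373 of 873 were higher (42.7% against 31.6% of all genes), and in the highest bin 16 of 87 (18.4% against 30.6%). D430019H16Rik (5.92) and 1700028J19Rik (4.92) were the highest of those measured in both fractions. Of 1045 odorant, vomeronasal and taste receptor genes on the array, 49 passed the filter on dim probes, with 6 higher and 8 lower. Among genes in no class, Maob, which degrades amines in the outer mitochondrial membrane, was 45.4-fold higher, at 2.77, 2.79, 3.06 and 2.67 against -1.89, -3.51, -2.32 and -3.02, and Tox3, an HMG-box factor, 45.2-fold higher. Rapsn, which clusters receptors at the neuromuscular junction, differed by 5.33. Ptn, a heparin-binding growth factor, differed by -5.90 and Anks4b, a scaffold of the brush border, by -5.64. Some genes named here were well above background on only 3 arrays of 1 fraction. In EGFP+ tubules these were Anks4b, Cckar, Clic6, Dao, Foxd1, Ptn and Slc22a22. In EGFP- tubules they were Atp12a, Cdh3, Ctsk, D430019H16Rik, Pde1b, Prox1, Rapsn, Tfap2b and Zfp599. Among the immune markers C1qb was above it on 2 EGFP+ arrays, and Cd3e and Cd68 on 2 EGFP+ and 3 EGFP- arrays.

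The difference between fractions was set against sex with 2 mice of each. The remaining proximal signal split the same way. The proximal markers had a median difference of -5.38 and -5.44 in the female mice 1 and 3, and of -4.14 and -4.71 in the male mice 2 and 4. What part this signal had in differences by sex was not tested. In limma's moderated test on the 4 per-mouse differences, 1 gene passed after Benjamini-Hochberg adjustment, and 1949 of the genes (12.1% of the 16090 that could be tested) had an unadjusted p under 0.05. That gene, Pzp, a pregnancy zone protein related to alpha-2-macroglobulin, was chosen after its values were seen. It stood at -7.44 and -7.23 in EGFP- tubules of the female mice 1 and 3 and at 0.99 and 1.41 in those of the male mice 2 and 4, and at -7.23 and -6.80 against -4.11 and -4.0 in EGFP+ tubules. Pzp was well above background on all 4 arrays of the male mice and on none of the 4 arrays of the female mice. Its difference between fractions was therefore measured in males alone, at -5.10 in mouse 2 and -5.41 in mouse 4, and the test on sex says nothing about the size of a difference in females.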

How the data were processed

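RNA of EGFP+ and EGFP- tubules was hybridised to one-colour Agilent arrays (design 014868, mm8 positions). Per the file headers, the deposited values are intensity values of Feature Extraction 9.5.3.1, background-subtracted and spatially detrended by that software and not scaled between arrays. Here log2 of the processed signal was taken minus each array's 75th percentile over non-control probes. Spots marked as outliers were left out, which left 209 genes with a missing value. Repeated spots of a probe were averaged. Of 41174 probes 24375 were named by accession, 6301 by current symbol, 2426 by an older symbol and 8072 kept the file's name. A probe was kept if 4 or more of the 8 arrays called it well above background, with the brightest probe per gene, and in 49 of 5756 genes with several probes these went opposite ways. limma 3.58.1 (R 4.3.3) fitted the fraction with mouse as a block, and Benjamini-Hochberg adjusted p-values over all genes were called under 0.05. The pairing comes from the labels, which tie both fractions to 1 mouse. Fractions of the same mouse deviated together (correlations of 0.40, 0.29, 0.25 and 0.34). Among the EGFP- arrays, that of the same mouse correlated best with the EGFP+ array in 4 of 4. A gene not above background in 1 fraction was given as a bound, the brighter mean over the lowest signal well above background. The script was tested on simulated data.

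Genes were named by a rule on size within each class, plus marker genes and the largest differences in no class, with the Hox genes and Pzp chosen after their values were seen. Members, classes and lists were chosen with earlier results of these data known. The series value table was not used, since its columns are shifted by 1 fraction within each mouse. Alternatives covered the block, slide, scaling, background, filter, probe choice and each mouse left out.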

Additional observations from a re-analysis of the deposited data

Results flagged for a closer look

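In a group of 4 values, a gap between 1 value and its nearest neighbour was noted where its share of the whole range passed Dixon's critical value, which chance gives in about 1 in 20 groups. Of 151 groups examined 8 were noted, about as many as that rate gives. Class medians set mouse 4 apart in 3 cases. The cadherins, protocadherins and catenins had medians of 0.21, 0.28, 0.19 and 0.86 in mice 1 to 4, a gap of 0.866 of the range. The fatty acid class had -0.29, -0.26, -0.29 and -0.60, a gap of 0.912. The G protein subunits and RGS proteins had 0.06, 0.12, 0.08 and -0.31, a gap of 0.86. Mouse 3 stood apart in the mitochondrial carriers, at 0.30 against 0.10, 0.06 and 0.08, a gap of 0.833.

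Among single genes, C2 in EGFP+ tubules was apart in mouse 2 (-0.07 against -1.22, -1.15 and -1.08, a gap of 0.878). Pdk1 in EGFP+ tubules was apart in mouse 1 (3.63 against 3.85, 3.86 and 3.89, a gap of 0.846). Gpx6 was apart in mouse 4 in both fractions, at 4.0 against 3.58, 3.52 and 3.58 in EGFP+ (a gap of 0.875) and at -1.75 against -0.99, -1.07 and -0.96 in EGFP- tubules (a gap of 0.861).

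In limma's moderated test of male minus female mice the fitted value for Pzp was -5.57 (adjusted p = 0.032). Pzp was well above background on none of the 4 female arrays, so this is not a measured difference between the sexes. In 6 classes both female mice had a median difference above 0 and both male mice one below it, which was not tested. Male minus female, these were -0.27 for metal ion carriers, -0.28 for aminoacyl-tRNA synthetases, -0.22 for ribosome biogenesis factors, -0.43 for proteasome subunits, -0.54 for cholesterol genes and -0.23 for nucleotide metabolism.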

How the results depend on the processing

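Of 52 counts of called genes over the alternatives, 49 stayed within 1.5 times the reported count. Without the mouse block 5676 genes were higher and 3979 lower, so the replicate block changed no count of genes by over 1.5 times. Leaving out each mouse gave 4483 to 5187 genes higher and 3628 to 3785 lower. Genes at least 4-fold lower numbered 1039 with the normexp correction and 1037 among probes well above background on all 8 arrays, where 533 were at least 4-fold higher. That filter tested 13290 genes, and for normexp the cause was not tested. Of 1472 class medians under alternatives, 86 in 33 classes had another sign than the reported median. In 73 of them the reported median lay within 1 SD over the mice of 0, among them the cytosolic ribosomal proteins with median centring (0.03) and the protease inhibitors with normexp (0.26, against -0.48). In the other 13 it lay farther from 0. With normexp these were 0.64 for potassium channels, 0.14 for ligand-gated channels, 0.08 for G protein-coupled receptors, 0.23 for growth factors, 0.12 for the TGF-beta and BMP class, 0.05 for cytokines, 0.13 for collagens and 0.03 for ADAM and matrix metalloproteinases. With probes above background on all 8 arrays they were 0.39 for potassium channels and 0.09 for growth factors. Median centring gave 0.01 for the TGF-beta and BMP class, slide 3 alone -0.01 for cyclic nucleotide signalling and slide 1 alone -0.02 for bHLH and bZIP factors. The cause was not tested. Outside these 13 medians, 229 lay at least 1 SD over the mice from the reported one. With probes above background on all 8 arrays, integrins went from -0.98 to -0.19 and amino acid carriers from -1.62 to -0.42. Among 224 named genes, 2850 of 2877 values kept their side of the threshold, and those of called genes also their direction. A change of sign in a gene called in neither fit was not counted. C1qb (0.89) and Cd3e (0.88), not called in the reported fit, changed sign with normexp. Signal near background limits the dimmest genes. Bounds were given where no array of a fraction was well above background, while 22 named genes, Cdh3, Prox1, Tfap2b and Trpm6 among them, were above it on only some arrays of a fraction. For Slc34a1 among them the other array had no usable value, and for the rest the difference uses values that were not well above background.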
